A study of Arabidopsis thaliana with 12 samples.

Results

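Wild-type (WT) seedlings of Arabidopsis thaliana, ecotype Col-0, were profiled by mRNA sequencing in 2 experiments, and all WT libraries of one were set against those of the other. They are 6 of the 12 libraries of a series on mutants of prefoldin, a chaperone complex that helps tubulin and actin to fold. The 14-day WT group, the libraries titled Col_mock_A to C, came from whole seedlings aged 14 days, raised in vitro, labelled LD and collected at ZT1. The 7-day WT group, the libraries titled WT_A to C, came from whole seedlings aged 7 days, raised in vitro and labelled LL. LD is the usual name of long days, LL of continuous light, and ZT1 of 1 h after lights-on. No collection time is given for the 7-day group, and no treatment is described for the word mock in the 14-day titles. Each group has 3 libraries, and neither carries a mutation or transgene according to the labels. The other 6 libraries came from pfd4 seedlings grown with the 14-day WT and from 6x_pfd seedlings grown with the 7-day WT.

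Age, light regime and experiment differ together between the WT groups, time of day may differ as well, and these cannot be told apart. Each deposited table gives a gene's mean over WT and mutant libraries and the fold change between them, from which the mean of the 3 WT libraries was worked out. Values of single libraries were not analysed here, so no WT difference was tested. Levels are given as CPM, the WT mean count scaled so that all genes of a table sum to 1000000. They are not corrected for gene length, so levels are compared between the WT groups and not between genes. A difference is the log2 ratio of 14-day WT over 7-day WT. The value after ± is an approximate standard error (SE) on the log2 scale, made from the SEs the authors deposited on the assumption that WT and mutant libraries vary alike. It serves as a yardstick for the spread between libraries within each experiment, and holds none of the spread between experiments.

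The tables shared 18053 genes, of which 17892 had at least 1 CPM in the higher WT group. Of these, 680 genes (3.80%) were at least 2-fold higher in 14-day WT and 1608 (8.99%) at least 2-fold lower. These percentages are the background for every count below, and the median log2 ratio of all 17892 genes, -0.08, for every median. The difference was more than 2 approximate SEs for 673 of the 680 and 1592 of the 1608 genes. SEs as small as those given below nearly ensure this for any 2-fold difference, so it adds little to the counts. At the 2-fold line, the nearest log2 ratios were 1.0 inside and 0.999 outside. Most genes stayed closer together, with 87.2% within 2-fold and 69.3% within 1.5-fold. Across genes, which are not independent replicates, log2 CPM in the WT groups had a Pearson correlation of 0.921. The median approximate SE was 0.122, and 90% of genes had one of at most 0.231. The summed WT means were 29300171 normalized counts in 14-day WT and 33252658 in 7-day WT, averages over 3 libraries and not the depth of any one. In bulk samples, fewer cells of a type and less RNA per cell cannot be told apart.

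**Figure D1:**
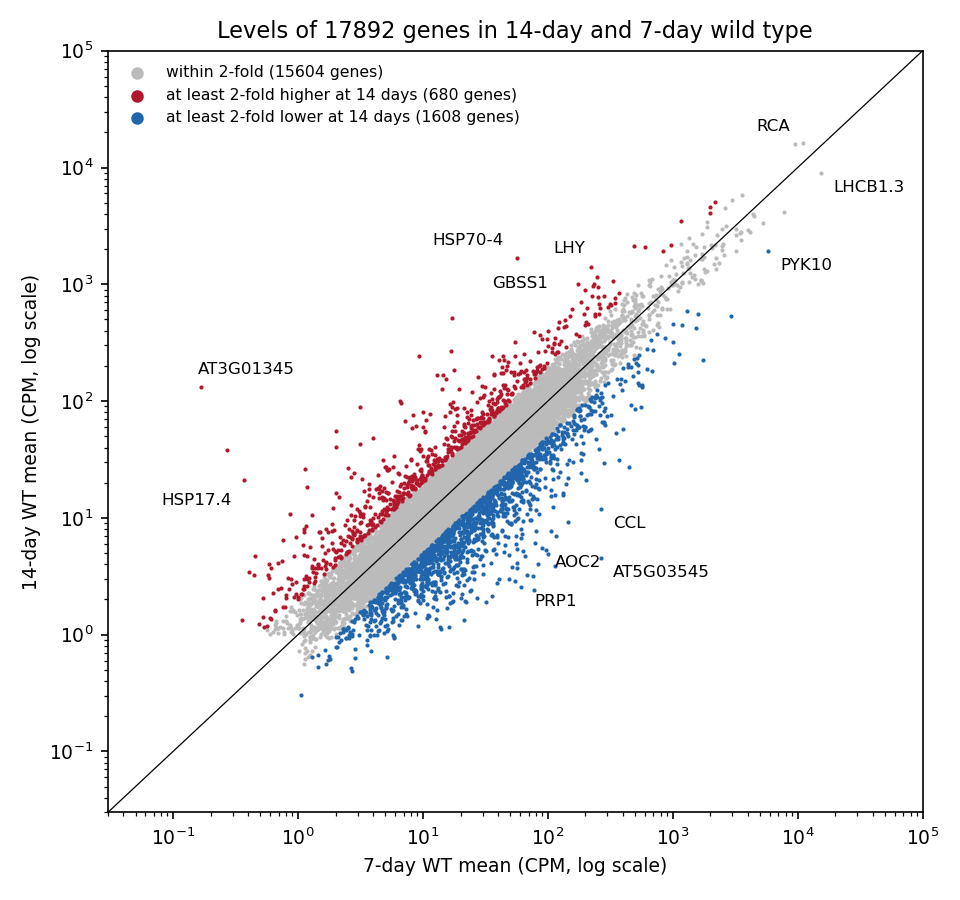
Mean level of each of 17892 genes in 14-day WT (vertical axis) against 7-day WT (horizontal axis), in CPM on log scales, 1 point a gene. Red points are the 680 genes at least 2-fold higher in 14-day WT and blue points the 1608 genes at least 2-fold lower. HSP70-4 lies at 1692 CPM in 14-day WT and 56.1 CPM in 7-day WT, far above the line of equal levels, and AT5G03545, at 4.49 and 264 CPM, far below it.

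The tissue label was checked against marker genes. Both WT groups held leaf mesophyll markers (5 of 5 measured, summing to 43859 CPM in 14-day WT and 38997 CPM in 7-day WT) and root markers (7 of 8 measured, 88.4 and 179 CPM). The mesophyll markers all stayed within 2-fold and were split in direction. RCA (0.56 ± 0.10), RBCS1A (0.75 ± 0.14) and GLK1 (0.97 ± 0.13) lay above 0, LHCB1.3 (-0.77 ± 0.10) and LHCB1.2 (-0.28 ± 0.14) below. The floral organ identity genes AP3, PI and AG were in neither table, and SEP3 was in the 7-day table only at 3.02 CPM in 7-day WT. Seed or embryo markers (2 of 3 measured) summed to 91.6 CPM in 14-day WT and 19.0 CPM in 7-day WT, of which CRA1 made up 88.3 and 17.2 CPM. The root marker sum in 14-day WT was 0.494 times that in 7-day WT, and 6 of the 7 markers were at least 2-fold lower. This sum stands beside the root, phosphate and Casparian strip results below, and its part in them was not tested.

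The plant circadian clock is a loop of transcription factors that repress each other at different times of day. CCA1 and LHY peak around dawn and repress evening genes such as TOC1, while the evening complex of ELF3, ELF4 and LUX acts at night. In long days the loop is set each day by light, and in continuous light it has no daily reset. Known binding letters for these factors are the evening element (AAAATATCT), bound by CCA1 and LHY, and the G-box (CACGTG), bound by several families of light and clock regulators. The 250 bases upstream of the annotated start of a dawn gene and of 2 genes lower in 14-day WT show these letters, 5′ to 3′ on the strand of the gene, from the RefSeq TAIR10.1 assembly. Capitals mark the G-box in CCA1 (chr2:19245341-19245590, plus strand) and the evening element, on either strand, in the clock gene TOC1 (chr5:24674713-24674962, plus strand) and in CCL (chr3:9827432-9827681, plus strand).
CCA1: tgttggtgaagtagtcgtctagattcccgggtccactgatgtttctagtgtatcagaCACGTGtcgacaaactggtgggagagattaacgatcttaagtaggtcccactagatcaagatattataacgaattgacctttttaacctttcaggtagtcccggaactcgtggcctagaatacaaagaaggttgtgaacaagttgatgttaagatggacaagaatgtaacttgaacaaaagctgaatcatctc
TOC1: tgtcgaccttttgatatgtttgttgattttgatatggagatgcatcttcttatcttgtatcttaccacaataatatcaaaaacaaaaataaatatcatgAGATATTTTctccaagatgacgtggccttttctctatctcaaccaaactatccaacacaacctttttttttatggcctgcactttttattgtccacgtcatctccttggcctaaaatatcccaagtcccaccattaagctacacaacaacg
CCL: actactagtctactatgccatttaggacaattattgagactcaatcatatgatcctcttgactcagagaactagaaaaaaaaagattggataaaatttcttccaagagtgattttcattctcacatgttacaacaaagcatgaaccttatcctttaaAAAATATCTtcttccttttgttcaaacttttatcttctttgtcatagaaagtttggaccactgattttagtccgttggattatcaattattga

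Dawn genes were higher in 14-day WT and evening genes lower. Of 12 morning clock genes, 9 were at least 2-fold higher and none lower, with a median log2 ratio of 1.51. LHY had 1002 CPM in 14-day WT and 234 CPM in 7-day WT, a log2 ratio of 2.10 ± 0.10. CCA1 had 613 and 155 CPM (1.98 ± 0.10). PRR9, a morning repressor of CCA1 and LHY, had 39.0 CPM in 14-day WT and 9.10 CPM in 7-day WT (2.10 ± 0.20). The coactivator genes LNK1, LNK2, LNK3 and LNK4 had log2 ratios between 1.44 and 1.95. RVE8, which activates evening genes, was at 167 CPM in 14-day WT and 67.8 CPM in 7-day WT, and RVE1, a regulator of auxin genes, at 178 and 80.4 CPM. The other three stayed within 2-fold, PRR7 at -0.38 ± 0.14, RVE4 at -0.06 ± 0.10 and RVE6 at 0.25 ± 0.12.

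Of 12 evening clock genes 8 were measured in both tables, 4 of them at least 2-fold lower in 14-day WT and none higher (median -1.08). ELF4 stood furthest apart, with 1.90 CPM in 14-day WT and 22.1 CPM in 7-day WT (-3.54 ± 0.25). TOC1 had 17.0 and 66.6 CPM (-1.97 ± 0.12), ELF3 23.8 and 60.8 CPM (-1.36 ± 0.10), and CHE, a repressor of CCA1, 13.2 and 37.7 CPM (-1.52 ± 0.14). LUX was lower by less than 2-fold (-0.80 ± 0.12). GI (-0.13 ± 0.13), ZTL (0.10 ± 0.08) and LKP2 (-0.21 ± 0.11), genes for light-sensing and partner proteins that control the stability of clock proteins, had similar levels in both. The other 4 evening genes were in the 7-day table only, PRR5 at 17.2 CPM, PRR3 at 10.7 CPM, BOA at 10.6 CPM and FKF1 at 8.89 CPM in 7-day WT. They were not in the 14-day table, which holds genes that passed the authors' abundance filter there.

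**Figure D2:**
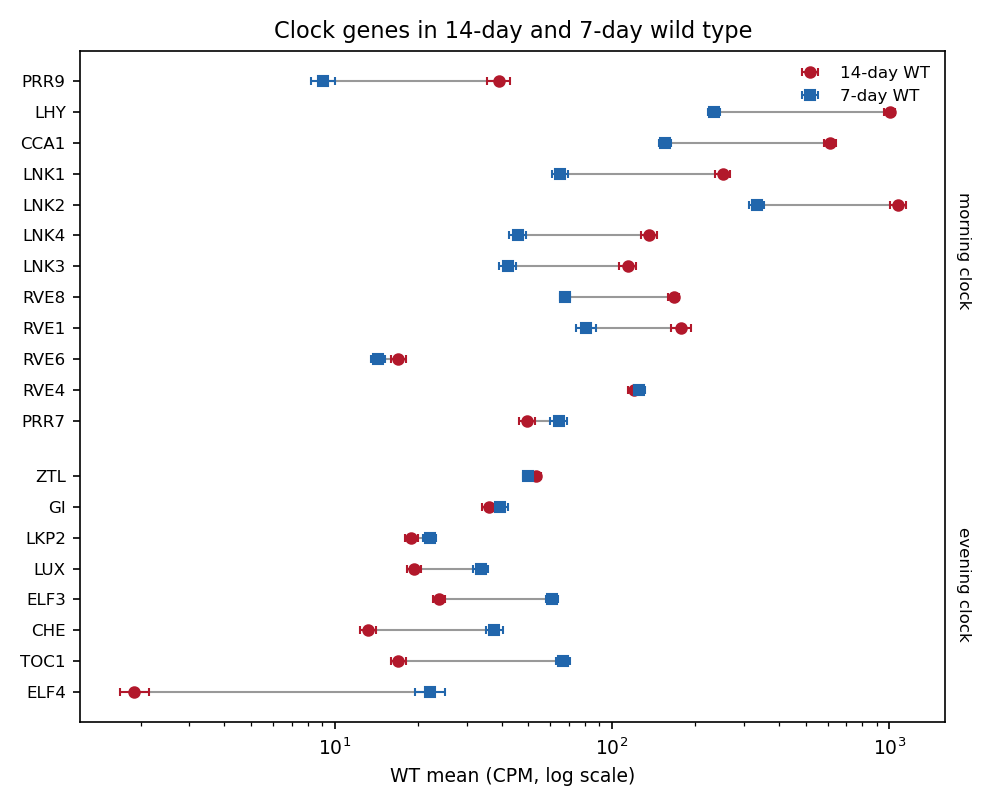
Mean level of each morning and evening clock gene present in both tables, in CPM on a log scale, for 14-day WT (red circles) and 7-day WT (blue squares), with bars that split the approximate SE of the log2 ratio equally between both means. The dawn genes LHY and CCA1 have their circles to the right of the squares, and ELF4 and TOC1 have them to the left.

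The evening element was found in 2.35% of the 17841 upstream windows read, in 1.32% of the genes 2-fold higher in 14-day WT and in 4.93% of those 2-fold lower. The G-box was in 7.54% of all windows, 11.8% of the higher genes and 7.04% of the lower ones. Both strands were searched. Among the clock genes, TOC1 and LUX held the evening element, and 6 of the 12 morning genes the G-box. CCL (CCR-like), known for a clock-controlled and unstable transcript, had 11.9 CPM in 14-day WT and 265 CPM in 7-day WT (-4.48 ± 0.18), among the 12 largest differences downward.

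Of 8 photoperiod output genes, 2 were at least 2-fold higher in 14-day WT and 1 lower (median 0.66). COL1 and COL2, relatives of the photoperiod gene CONSTANS, were higher in 14-day WT (log2 ratios 1.10 ± 0.08 and 1.41 ± 0.13). GRP7, an RNA-binding protein under clock control, had 92.7 CPM in 14-day WT and 462 CPM in 7-day WT (-2.32 ± 0.15). The genes of the floral signals FT and TSF, and CONSTANS itself, were in neither table. Of 14 floral repressors measured, 3 were at least 2-fold lower in 14-day WT and none higher (median -0.13). FLC, the repressor silenced by winter cold, had 2.36 and 8.42 CPM (-1.83 ± 0.21). TEM1 and TEM2, repressors of FT, had -2.12 ± 0.68 and -1.88 ± 0.73, with SEs well above the median gene's. The SPL genes, factors of the change to the adult phase that miR156 holds back, had log2 ratios of 0.23 or more. Of 10 adult phase and floral promoter genes, 2 were at least 2-fold higher and none lower (median 0.48). SPL11 (22.2 and 7.81 CPM, 1.51 ± 0.12) and SPL15 (4.86 and 2.41 CPM, 1.01 ± 0.24) were these, and SPL4 (2.25 CPM), AGL24 (18.3 CPM) and AGL19 (2.49 CPM) were in the 14-day table only.

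Starch is built in leaves by day and broken down at night, and many of its breakdown genes are known to follow the clock. Of 20 starch genes measured, 8 were at least 2-fold lower in 14-day WT and 3 higher (median -0.52). GBSS1, the granule-bound enzyme that makes amylose and a known target of CCA1 and LHY, had 1000 CPM in 14-day WT and 173 CPM in 7-day WT (2.53 ± 0.15). The beta-amylase family genes BAM9 (532 and 151 CPM, 1.82 ± 0.17) and BAM3 (637 and 301 CPM, 1.08 ± 0.17) were also higher. The lower genes act in breakdown, and PHS2, a cytosolic glucan phosphorylase, had 15.6 and 115 CPM (-2.87 ± 0.14). AMY3, a chloroplast alpha-amylase, had -2.11 ± 0.14, and PHS1, the chloroplast phosphorylase, -2.05 ± 0.12. Of 14 genes of the sugar starvation and dark response, 7 were at least 2-fold lower and 1 higher (median -1.10). DRM1, a dormancy-associated gene, had 22.4 CPM in 14-day WT and 121 CPM in 7-day WT (-2.43 ± 0.26), and DIN1, a dark-induced gene, 25.6 and 110 CPM (-2.11 ± 0.53). DIN2 was the higher one, at 6.92 and 2.16 CPM (1.68 ± 0.33). In the mutant libraries the median of this list was 0.65, on the other side of 0.

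The 10 genes with the most counts took 7.44% of the total in 14-day WT and 7.15% in 7-day WT, and 4 were in both sets. RCA, the activase of Rubisco, had 16119 CPM in 14-day WT and 10944 CPM in 7-day WT (0.56 ± 0.10). LHCB1.3, an antenna protein of photosystem II, had 8912 CPM in 14-day WT and 15236 CPM in 7-day WT (-0.77 ± 0.10). Of 24 genes for light-harvesting proteins and the small subunit of Rubisco, 3 were at least 2-fold higher in 14-day WT and 1 lower, with a median of -0.29. The Rubisco members all lay above 0, RBCS1B at 2078 and 596 CPM (1.80 ± 0.17), RBCS2B at 4610 and 1992 CPM (1.21 ± 0.16), RBCS1A at 0.75 ± 0.14 and RBCS3B at 0.69 ± 0.16. LHCB1.4 was the lower one, with 533 and 2943 CPM (-2.47 ± 0.12), and LHCB4.3 was higher, with 31.7 and 13.5 CPM (1.23 ± 0.17). RBCS1B, RBCS2B and RBCS3B, and LHCB1.1, LHCB1.2 and LHCB1.3, are near-identical neighbours whose shared reads may have been split between them, so single values of these are uncertain. All 26 photosystem subunit genes stayed within 2-fold, between -0.76 and 0.56 (median -0.19). Of 15 chlorophyll synthesis genes only PORB, a light-dependent protochlorophyllide reductase, passed 2-fold, with 57.7 CPM in 14-day WT and 398 CPM in 7-day WT (-2.78 ± 0.11).

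Light signalling genes were split, with 5 of 17 at least 2-fold higher in 14-day WT and 3 lower (median 0.41). HYH (71.4 and 27.4 CPM, 1.38 ± 0.11) and HY5 (36.9 and 16.0 CPM, 1.20 ± 0.09), bZIP factors of light signalling, were higher. So were PIF7, a transcription factor of the shade response (1.22 ± 0.12), and the early light-induced protein genes ELIP1 (31.5 and 8.08 CPM, 1.96 ± 0.18) and ELIP2 (22.3 and 2.65 CPM, 3.08 ± 0.20). BBX22 and BBX21 encode B-box factors that act with HY5. BBX22 had 5.46 and 27.8 CPM (-2.35 ± 0.14), PIF3 -1.36 ± 0.11 and BBX21 -1.02 ± 0.08. Flavonoids, which absorb ultraviolet light, are made by a pathway that HY5 is known to activate. Of 15 flavonoid genes measured, 7 were at least 2-fold higher in 14-day WT and 1 lower (median 0.84). F3H had 225 CPM in 14-day WT and 40.3 CPM in 7-day WT (2.48 ± 0.14), FLS1, the flavonol synthase gene, 117 and 35.3 CPM (1.72 ± 0.13), and CHS, the entry enzyme, 441 and 139 CPM (1.66 ± 0.13). The late anthocyanin genes DFR (0.29 ± 0.34), LDOX (0.66 ± 0.37) and UF3GT (0.18 ± 0.45) stayed within 2-fold and within 2 approximate SEs. MYBL2, a repressor of the pathway, was the lower gene, with 10.8 and 68.6 CPM (-2.67 ± 0.22). In the mutant libraries the list had a median of -0.35.

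**Figure D3:**
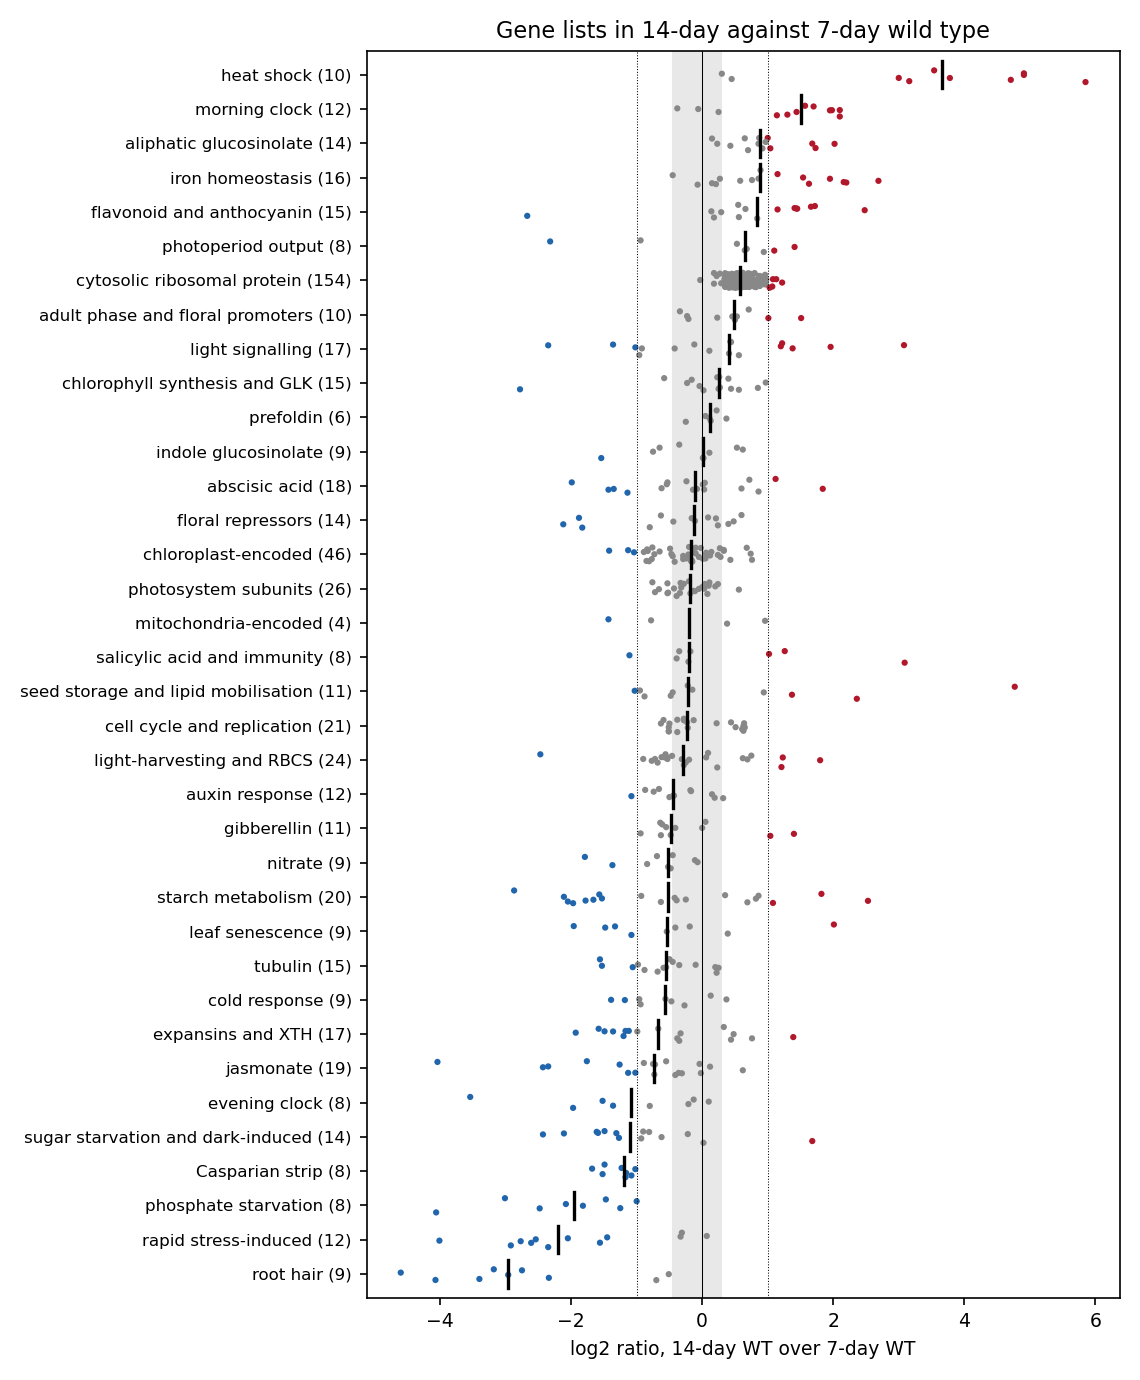
Log2 ratio of 14-day WT over 7-day WT (horizontal axis) for the measured genes of each list, 1 point a gene, with the number of genes in brackets, a black bar at the list's median and a grey band over the middle 50% of all 17892 genes. The heat shock list lies furthest right with a median of 3.66, the root hair list furthest left with a median of -2.96, and the 154 cytosolic ribosomal protein genes are packed around 0.58.

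Heat shock proteins are chaperones that hold or refold damaged proteins, and their genes are switched on by heat shock factors that bind repeats of GAA and TTC. Of 10 heat shock genes in both tables, 8 were at least 2-fold higher in 14-day WT and none lower, with a median of 3.66. The window upstream of HSP17.4 (chr3:16984868-16985117, minus strand, TAIR10.1) is shown because this small chaperone gene stood furthest apart within the list. Capitals mark the heat shock element as searched, GAA, TTC and GAA with 2 free bases between them.
HSP17.4: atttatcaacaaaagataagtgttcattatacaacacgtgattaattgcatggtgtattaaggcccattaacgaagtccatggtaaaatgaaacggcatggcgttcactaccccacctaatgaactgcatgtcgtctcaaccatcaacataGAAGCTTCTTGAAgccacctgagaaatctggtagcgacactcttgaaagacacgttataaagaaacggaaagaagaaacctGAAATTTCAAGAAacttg

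HSP17.4 had 21.2 CPM in 14-day WT and 0.368 CPM in 7-day WT (5.85 ± 0.29). HSP70-4, a heat-induced cytosolic HSP70, had 1692 and 56.1 CPM (4.91 ± 0.15), and HSP90.1, the heat-induced cytosolic HSP90, 513 and 17.1 CPM (4.91 ± 0.15). ROF2, an FKBP-type partner of HSP90, had 241 CPM in 14-day WT and 9.22 CPM in 7-day WT (4.71 ± 0.15). The disaggregase gene HSP101 was at 168 and 14.5 CPM (3.54 ± 0.14). HSFA2, the heat-induced heat shock factor, was in the 14-day table only, at 61.9 CPM in 14-day WT, as were HSP17.8 (64.9 CPM), HSP17.6II (21.3 CPM) and HSP17.6A (17.2 CPM). The exceptions within 2-fold were HSP18.2 (0.45 ± 0.25) and HSFA7A (0.30 ± 0.22). The motif searched was in 0.398% of all windows, 0.588% of the genes 2-fold higher in 14-day WT and 0.436% of those 2-fold lower. Among the 10 listed genes it was in the windows of HSP17.4 and HSFA7A. In the mutant libraries, pfd4 at 14 days also had higher levels than 6x_pfd at 7 days, such as 932 against 171 CPM for HSP70-4. The chaperone HSC70-1, a constitutive HSP70 gene among the 10 with the most counts in 14-day WT, had 4048 and 1980 CPM (1.03 ± 0.07).

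Plants short of phosphate express transporters, phosphatases and enzymes that replace phospholipids, and SPX proteins report phosphate status to the factor PHR1, which binds the P1BS letters GNATATNC. All 8 phosphate starvation genes in both tables were at least 2-fold lower in 14-day WT (median -1.95). The gene with the largest difference downward of all measured was AT5G03545, annotated as expressed in response to phosphate starvation, and its upstream window (chr5:894332-894581, plus strand, TAIR10.1) is shown with P1BS in capitals.
AT5G03545: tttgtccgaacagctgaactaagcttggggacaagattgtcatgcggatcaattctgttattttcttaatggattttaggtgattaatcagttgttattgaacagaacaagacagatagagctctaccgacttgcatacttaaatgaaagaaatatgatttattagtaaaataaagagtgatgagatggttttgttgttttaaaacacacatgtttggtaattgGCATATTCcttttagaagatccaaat

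AT5G03545 had 4.49 CPM in 14-day WT and 264 CPM in 7-day WT (-5.88 ± 0.15). PECP1, a phosphatase that releases phosphate from lipid head groups, had 1.92 and 32.0 CPM (-4.06 ± 0.25). SPX1 had 16.4 and 132 CPM (-3.01 ± 0.11), and the transporter gene PHT1;4 12.8 and 71.6 CPM (-2.48 ± 0.12). The lipid replacement genes SQD1 (-1.25 ± 0.13), SQD2 (-1.47 ± 0.11) and MGD2 (-2.08 ± 0.16) were lower too. IPS1, a non-coding RNA that sequesters miR399, was in the 7-day table only, at 29.6 CPM in 7-day WT, as were MGD3 (22.7 CPM) and SPX3 (6.92 CPM). P1BS letters were in 5.42% of all windows, 7.29% of the genes 2-fold lower and 4.85% of those 2-fold higher, and among the 8 listed genes in that of MGD2. The mutant libraries had a median of -2.23 for this list. The summed root markers were 88.4 CPM in 14-day WT and 179 CPM in 7-day WT, and their part in this list was not tested.

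Root hair genes had the lowest median of all lists, with 7 of 9 at least 2-fold lower in 14-day WT and none higher (median -2.96). Root hairs are tubular outgrowths of root epidermal cells whose walls carry proline-rich proteins and extensins. PRP1 had 2.54 CPM in 14-day WT and 61.4 CPM in 7-day WT (-4.60 ± 0.26), PRP3 6.94 and 117 CPM (-4.07 ± 0.21), and the peroxidase gene RHS19 7.67 and 80.7 CPM (-3.40 ± 0.24). COBL9, LRX2 and RSL4, a factor that drives hair growth, were in the 7-day table only, at 19.9, 16.7 and 8.03 CPM in 7-day WT. RHD6 (-0.70 ± 0.26), which acts earlier in hair formation, and MRH1 (-0.51 ± 0.11) stayed within 2-fold. Extensin genes EXT12, EXT6, EXT13 and EXT10 were among the 12 largest differences downward, with log2 ratios between -5.01 and -4.19. Extensins are repetitive and similar, so reads may have been shared among them. All 8 Casparian strip genes, of the root endodermis, were at least 2-fold lower, but within a narrow band from -1.68 to -1.02. CASP4 had 2.54 and 8.12 CPM (-1.68 ± 0.21), and CASP1 19.0 and 44.4 CPM (-1.23 ± 0.15). The root marker sum, which holds genes of these lists such as CASP1, PER64 and EXPA7, was 88.4 CPM in 14-day WT and 179 CPM in 7-day WT, and PYK10, a glucosidase abundant in roots and hypocotyls, had 1915 and 5740 CPM (-1.58 ± 0.08). IRT1, the root iron transporter gene, was near equal at 34.1 and 35.8 CPM (-0.07 ± 0.40).

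**Figure D4:**
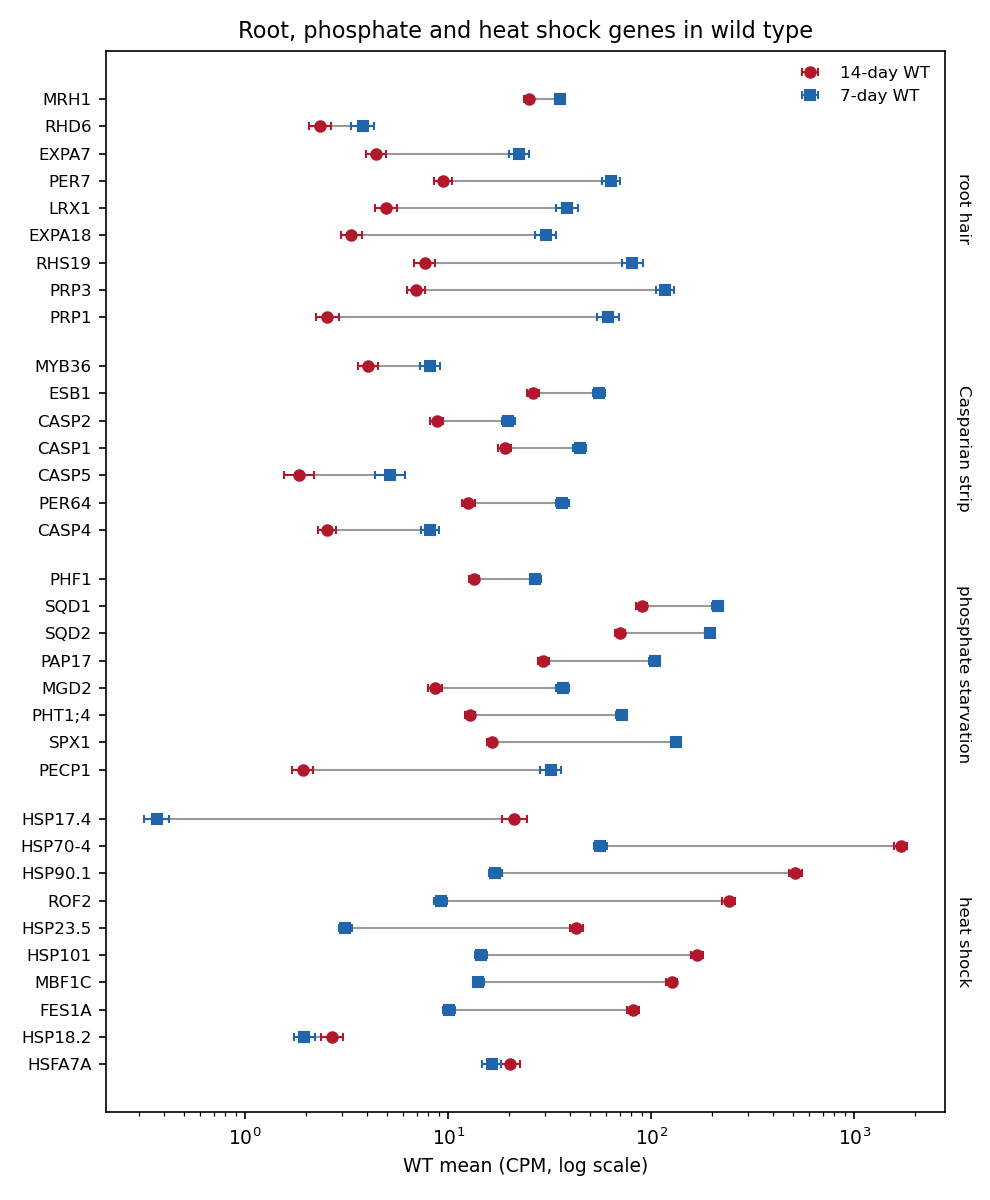
Mean level of root hair, phosphate starvation and heat shock genes present in both tables and of 7 of the 8 Casparian strip genes, in CPM on a log scale, for 14-day WT (red circles) and 7-day WT (blue squares), with bars that split the approximate SE of the log2 ratio equally between both means. Circles lie left of the squares for all 8 phosphate starvation genes and right of them for all 10 heat shock genes.

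Of 16 iron homeostasis genes, 7 were at least 2-fold higher in 14-day WT and none lower (median 0.88). BHLH100, a factor of the iron-deficiency response, had 68.4 CPM in 14-day WT and 10.6 CPM in 7-day WT (2.69 ± 0.44), PYE 87.0 and 18.9 CPM (2.20 ± 0.13), and IMA3, a signalling peptide gene, 242 and 54.3 CPM (2.16 ± 0.15). BTS, a ubiquitin ligase that restrains the response, was also higher, at 707 and 183 CPM (1.95 ± 0.13). FIT, the root regulator of iron uptake, was at 0.21 ± 0.18 and its target FRO2 at 0.76 ± 0.44. In the mutant libraries the list median was -0.12, and BHLH100 had 21.8 CPM in pfd4 and 97.7 CPM in 6x_pfd. Nitrate genes all lay below 0, with 2 of 9 at least 2-fold lower, GDH2 at -1.79 ± 0.13 and the nitrate reductase gene NIA1 at -1.37 ± 0.32.

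Glucosinolates are sulphur-rich defence compounds of the cabbage family, made from methionine (aliphatic) or tryptophan (indole). All 14 aliphatic glucosinolate genes lay above 0 in 14-day WT, 5 of them by at least 2-fold (median 0.89). MYB29, a regulator of the aliphatic branch, had 59.7 CPM in 14-day WT and 14.7 CPM in 7-day WT (2.02 ± 0.15), and the side-chain enzyme genes AOP2 (38.0 and 11.5 CPM, 1.73 ± 0.20) and FMO GS-OX1 (40.2 and 12.6 CPM, 1.68 ± 0.19) followed. The 9 indole genes had a median of 0.01, with MYB51 lower (7.75 and 22.6 CPM, -1.54 ± 0.44).

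Of 19 jasmonate genes, 7 were at least 2-fold lower in 14-day WT and none at least 2-fold higher (median -0.73), and 17 lay below 0. AOC2, an allene oxide cyclase of jasmonate synthesis, had 5.48 CPM in 14-day WT and 89.9 CPM in 7-day WT (-4.04 ± 0.20), and its neighbour AOC1, which may share reads with it, 6.91 and 37.3 CPM (-2.43 ± 0.13). VSP1, a jasmonate-induced storage protein gene, had 14.6 and 74.3 CPM (-2.35 ± 0.18). Of 12 rapid stress-induced genes, 9 were at least 2-fold lower (median -2.20), such as WRKY40 at 1.34 and 21.5 CPM (-4.01 ± 1.23), ERF6 at 2.12 and 16.1 CPM (-2.92 ± 1.04) and ERF104 at 5.39 and 36.8 CPM (-2.77 ± 1.01). The approximate SEs of this list ran from 0.25 to 1.23. In the authors' deposited table for 7 days the SE of WRKY40 was 1.70, of ERF6 1.44 and of ERF104 1.41, and in the authors' deposited table for 14 days it was 0.35, 0.29 and 0.25, so the spread lay mostly in the 7-day experiment, among its WT libraries, its mutant libraries or both. Of 9 cold genes (median -0.56) 2 were at least 2-fold lower, KIN1 (-1.39 ± 0.18) and COR413PM1 (-1.18 ± 0.10). Of 18 abscisic acid genes 4 were at least 2-fold lower and 2 higher (median -0.11). CYP707A1, which degrades abscisic acid, was at -1.99 ± 0.18 and RD20 at 1.84 ± 0.33. Among 8 salicylic acid genes (median -0.20) 3 were at least 2-fold higher, PBS3 (3.09 ± 0.57), PR5 (1.26 ± 0.26) and WRKY70 (1.02 ± 0.74), and 1 lower, EDS5 (-1.11 ± 0.16).

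Of 154 cytosolic ribosomal protein genes, 153 were above 0 and 5 at least 2-fold higher in 14-day WT, with a median of 0.58 and a combined share of 2.73% of the total in 14-day WT and 1.81% in 7-day WT. All 21 cell cycle genes were within 2-fold (median -0.23). The helicase genes MCM2 to MCM7, which open DNA for replication, lay between 0.51 and 0.65 in 14-day WT, while the mitotic B-type cyclin and CDKB genes lay between -0.63 and -0.13. Of 15 tubulin genes 3 were at least 2-fold lower (median -0.55), TUB1 (20.0 and 58.9 CPM, -1.56 ± 0.15), TUB5 (82.6 and 238 CPM, -1.53 ± 0.09) and TUA5 (-1.06 ± 0.08), the last nearly identical to TUA3. The prefoldin genes PFD1 to PFD6 were all within 2-fold, between -0.25 and 0.37. Of 17 expansin and XTH genes, which loosen or remodel cell walls, 7 were at least 2-fold lower (median -0.67) and 1, EXPA5 (69.6 and 26.6 CPM, 1.39 ± 0.15), higher. XTH18 had 12.2 and 46.4 CPM (-1.93 ± 0.17) and EXPA8 42.2 and 126 CPM (-1.58 ± 0.27). Of 12 auxin response genes only SAUR19, at 0.955 and 2.01 CPM (-1.08 ± 0.37), passed 2-fold (median -0.44). Of 11 gibberellin genes 2 were at least 2-fold higher (median -0.48). GA3OX1, which makes active gibberellin, was one (7.77 and 2.94 CPM, 1.40 ± 0.17), and RGL2, a gibberellin repressor, the other (1.04 ± 0.23). Of 46 measured chloroplast-encoded genes 3 were 2-fold lower, but these transcripts mostly lack the poly(A) tail and made up 0.0279% of the total in 14-day WT and 0.0317% in 7-day WT. Of 4 measured mitochondria-encoded genes 1 was 2-fold lower, ATMG00020 (76.5 and 207 CPM, -1.43 ± 0.35). With ATMG01390 (57.1 and 97.9 CPM) it held nearly all of this list's 136 CPM in 14-day WT and 306 CPM in 7-day WT. Like the other organelle-encoded genes, neither matched the annotation used, so what they encode was not read.

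Genes outside the lists completed the extremes. AT5G12110, annotated as elongation factor 1-beta 1, had 266 CPM in 14-day WT and 16.7 CPM in 7-day WT (3.99 ± 0.11). CYP71A12, of camalexin synthesis, had 88.4 and 3.15 CPM (4.81 ± 0.91), and the seed storage protein gene CRC 54.9 and 2.02 CPM (4.77 ± 0.83), both with large SEs. The seed storage gene CRA1 had 88.3 CPM in 14-day WT and 17.2 CPM in 7-day WT (2.36 ± 0.57). Of 11 seed storage and lipid genes, 3 were at least 2-fold higher and 1 lower (median -0.22). In this list 4 genes lay above 0 and 7 below, among the latter EM6 (-0.95 ± 0.33) and OLEO2 (-0.45 ± 0.39). The seed or embryo marker sum, 91.6 CPM in 14-day WT and 19.0 CPM in 7-day WT, is nearly all CRA1. It is therefore no separate evidence, and the other measured marker, OLEO1, was at 0.94 ± 0.61. Of 9 senescence genes 4 were at least 2-fold lower (median -0.54), among them ORE1 (4.06 and 15.8 CPM, -1.96 ± 0.19), and 1 higher, SAG29 (39.0 and 9.69 CPM, 2.01 ± 0.45). Lower genes at the other end included MEE14 (3.88 and 114 CPM, -4.88 ± 0.41) and AT1G70820, annotated as a phosphoglucomutase (3.99 and 83.5 CPM, -4.39 ± 0.16).

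The 6 mutant libraries give the same contrast of age, light and experiment in other plants, with the genotype differing as well. Among the same 17892 genes, 795 (4.44%) were at least 2-fold higher and 2011 (11.2%) at least 2-fold lower in 14-day pfd4 than in 7-day 6x_pfd. Of the 1608 genes lower in 14-day WT, 1163 (72.3%) were also 2-fold lower there. Of the 680 genes higher in 14-day WT, 312 (45.9%) were also 2-fold higher there. WT and mutant libraries of an age share an experiment, so any difference between experiments enters both ratios. The overlap is therefore not independent replication. The morning clock list had a median of 1.51 in WT and 2.32 in the mutant libraries, heat shock 3.66 and 2.07, aliphatic glucosinolates 0.89 and 1.68, phosphate starvation -1.95 and -2.23, and root hair -2.96 and -4.33. Cold genes had -0.56 in WT and -2.14 in the mutant libraries, and light-harvesting genes -0.29 and 0.89. For each gene, the gap between the mutant ratio and the WT ratio is by construction the mutant-over-WT difference at 14 days minus that at 7 days.

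**Figure D5:**
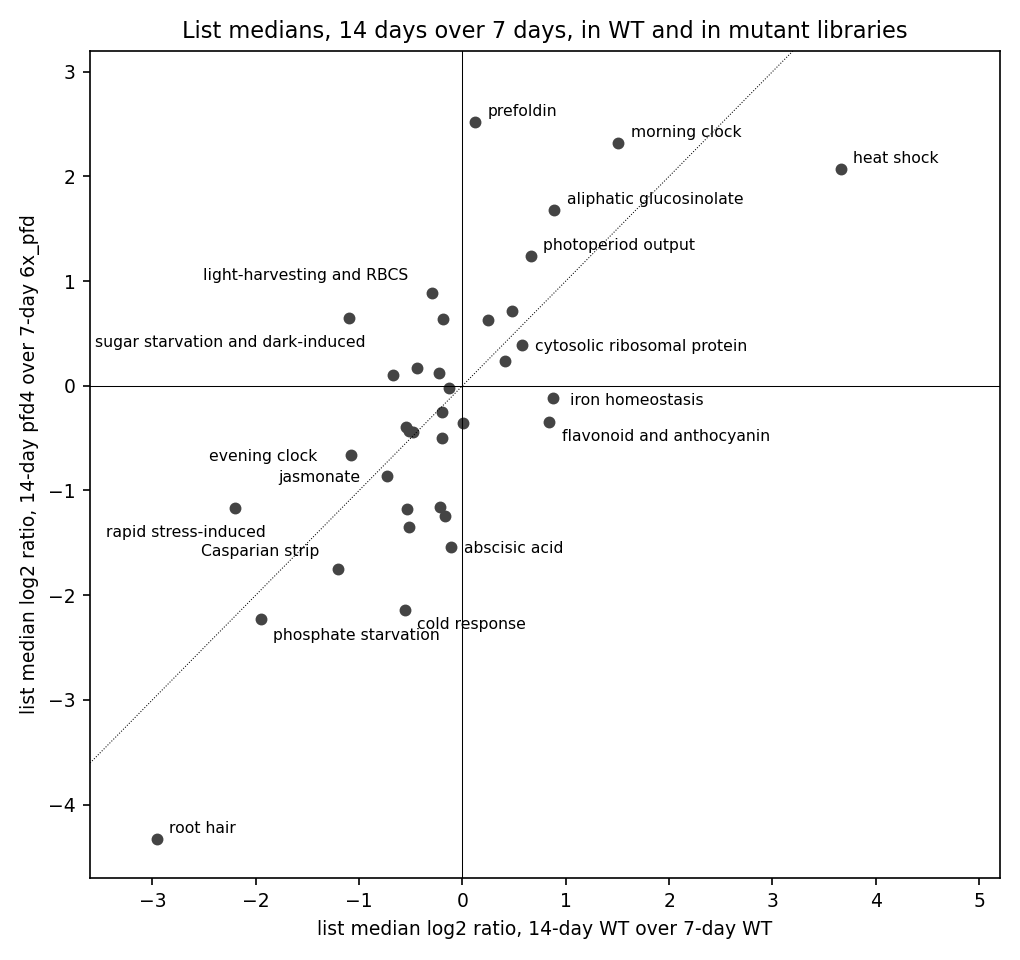
Median log2 ratio of each gene list for 14-day WT over 7-day WT (horizontal axis) and for 14-day pfd4 over 7-day 6x_pfd (vertical axis), 1 point a list, with a dotted line of equal values and the lists furthest from 0 named. Morning clock (1.51 and 2.32) and root hair (-2.96 and -4.33) lie on the same side of 0 on both axes, while sugar starvation (-1.10 and 0.65) and 8 other lists do not.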

How the data were processed

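Stranded mRNA libraries from whole seedlings were sequenced, per the labels' protocols. Per the submitters' processing notes, the tools were cutadapt, HISAT2, HTSeq and DESeq2 and the build was TAIR10, with versions not given in the sources used here. Strand settings and the counting of reads shared by several genes are not given there either. The deposited tables hold, per the file headers, each gene's mean normalized count (a signal value, scaled by DESeq2's size factors) and a log2 fold change, mutant over WT, with its SE. The file names state a minimum RPKM; the way it was applied is not stated. Other deposited columns, such as p-values and Wald scores, were not used.

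The WT mean was computed as 2 times the mean count over 1 plus the fold change, which weighs both genotypes' 3 libraries equally, and was scaled to CPM of each table's summed WT means. The log2 ratio of 14-day over 7-day WT took no pseudocount. Its approximate SE is the root of the mean of both tables' squared SEs. Genes needed 1 CPM in the higher WT group, and 2-fold was the line for a call. Counting error cannot be separated from the spread between libraries, and whether replicates came from separate cultures is stated only as biological samples. The reconstruction was tested on data simulated from the same model of group means, with ratios centred on their median. This checked the formula and not effects of the experiment or of the authors' abundance filter. Python 3.11.15, numpy 2.4.6, pandas 2.3.3 and matplotlib 3.10.9 were used.

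Annotation for names came from RefSeq TAIR10.1 and matched 18288 of the 18366 genes of the 14-day table and 19310 of the 19397 of the 7-day table. The 33 hand-made lists (509 genes) and 3 lists by annotation, like the 2 WT groups themselves, were chosen with earlier results of these data known. A pair of list entries was dropped because the annotation did not match the intended gene. Genes named are all clock genes, up to 3 called members a list and direction, the 12 largest differences each way and the 10 most abundant in each group, though not all of these appear in the text. Others within 2-fold, genes in 1 table only and some further list members were named after their values were seen. Motifs were searched as exact letters on both strands of the 250 bases upstream of 17841 genes, and no promoter held overlapping matches of the evening element and P1BS. 1 list member is not reported by name here.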

Additional observations from a re-analysis of the deposited data

How the results depend on the processing

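The counts of 680 genes higher and 1608 lower in 14-day WT stayed within 1.5 times under every other scaling, filter and SE condition tried, with 546 to 857 higher and 1311 to 2031 lower, the mutant libraries included. A 4-fold line left 123 higher and 317 lower, and a 1.5-fold line 2108 higher and 3377 lower, by construction. Centring on the median gave 853 and 1373. In the mutant libraries, an alternative chosen after the values were seen, 9 of 36 list medians were on the other side of 0: sugar starvation (0.65), light-harvesting (0.89), photosystem (0.64), cell cycle (0.12), flavonoid (-0.35), iron (-0.12), indole glucosinolate (-0.36), auxin (0.17) and expansins (0.10). The mean over WT and mutant libraries was also used in place of WT alone. Among 142 named genes, 7 that were past 2-fold then changed sign: DIN2 (-0.44), ICL (-0.42), SAG29 (-0.51), RD20 (-0.11), ATHB12 (-0.19), BHLH100 (-0.23) and SAUR19 (0.14). Sign changes of named genes within 2-fold were not counted. With the same mean, 6 list medians changed sign: flavonoid (-0.41), light-harvesting (0.32), photosystem (0.20), indole glucosinolate (-0.33), cell cycle (0.02) and floral repressors (0.01). The mutant levels enter that mean by construction. No list median changed sign under the other alternatives run: shared genes, median centring, trimmed mean, no organelle genes and the pseudocount. The labels give no pairing of libraries between the WT groups, so no paired analysis was run. No library could be left out because the deposited tables hold no values of single libraries. Genes under 1 CPM in both groups (161) were not called, and 313 genes of the 14-day table and 1344 of the 7-day table, with 0.135% and 0.475% of the WT totals, had no ratio.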

Other observations

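In a few genes 1 WT group stood at least 4-fold apart from the other 3 group means, with at least 5 CPM at the higher side. AT3G01345, an uncharacterized gene, had 133 CPM in 14-day WT, 0.518 CPM in 14-day pfd4, 1.93 CPM in 7-day 6x_pfd and 0.168 CPM in 7-day WT. CYP71A12 was the other gene high in 14-day WT alone, at 88.4 CPM, with 10.3 CPM in pfd4, 10.3 CPM in 6x_pfd and 3.15 CPM in 7-day WT. AOC2, ERF2 and AT5G51190 were low in 14-day WT alone. The 7-day WT stood low in 9 genes. They were the seed storage genes CRC and CRA1, the embryogenesis gene M17, ELIP2, F3H, SAG29, LURP1, AT3G28270 and the metal transporter gene IRT3. CRC had 54.9 CPM in 14-day WT, 36.4 CPM in pfd4, 38.1 CPM in 6x_pfd and 2.02 CPM in 7-day WT. CIPK20 was the gene high in 7-day WT alone, with 2.74 CPM in 14-day WT, 3.65 CPM in pfd4, 8.38 CPM in 6x_pfd and 39.3 CPM in 7-day WT.

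AT2G01021, an uncharacterized gene, had 38.3 CPM in 14-day WT and 39.3 CPM in pfd4, and 0.271 CPM in 7-day WT and 0.277 CPM in 6x_pfd.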
